A study of Homo sapiens with 4 samples.

Results

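The response of Caco-2 cells on plastic to the bile acid cholate was read from 2 arrays, 1 of cells given cholate and 1 of cells given vehicle. A gene entered the comparison when its probe set carried a single gene symbol and its mean over the 4 arrays of the study reached the 40th percentile of all probe sets, a log2 intensity of 4.84. This kept 13613 of 33297 probe sets, which stand for 12900 of 18417 measured genes. Caco-2, an established line from a human colorectal adenocarcinoma, comes to resemble absorptive cells of the small intestine when it is left to differentiate after confluence. Both pools came from regular 6 well plates, and the cells received either vehicle or 2 mM cholate for 3 h. The sample labels give 21 days of differentiation, whereas the growth protocol has plates used at 14 days after seeding. The cholate was made up in a HEPES-buffered salt solution lacking calcium, and the labels do not say whether vehicle cells received it too. Each array was made from a pool of RNA from 3 samples, so the spread between cultures was not measured, no value below has a replicate check, and no p-value is given. The other 2 arrays, of cells on collagen-coated Transwell inserts given vehicle or 2 mM cholate apically for 3 h, serve here as a second setting that shares no array with the plates.

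Cholate is a primary bile acid, a steroid detergent made by the liver from cholesterol and released into the gut, where it helps to emulsify fat. Intestinal cells sense bile acids through the nuclear receptor FXR and through membrane receptors, and take them up and export them with dedicated transporters. Cells that meet a new stimulus or a stress switch on immediate early genes, short genes whose products are mostly transcription factors and feedback inhibitors and whose RNAs decay quickly.

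The arrays were of similar overall level, with medians over all probe sets of 5.66 for plate vehicle and 5.73 for plate cholate, and 5.64 to 5.73 over the 4 arrays. All 16 measured Caco-2 and enterocyte markers, among them villin (VIL1), CDX2 and sucrase-isomaltase (SI), reached the floor of 4.84, and their mean level was 10.5 in plate vehicle and 10.6 in plate cholate. Of markers of other cells, 6 of 14 for fibroblasts and smooth muscle, 3 of 10 for endothelium and 5 of 12 for leukocytes reached it, with mean levels of 4.68 and 4.68, 4.46 and 4.47, and 5.15 and 5.23 in plate vehicle and plate cholate. Markers at the floor included COL1A1 at 7.90 and 8.15, PDGFRA at 6.41 and 5.63, PECAM1 at 5.93 and 5.58, CD68 at 9.04 and 9.45, CD14 at 8.45 and 8.39 and CSF1R at 6.92 and 6.84, while DCN, LUM, EMCN, KDR and PTPRC lay between 2.90 and 3.43.

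Cholate on plates was marked by higher RNA of immediate early transcription factors, of some histones and, most of all, of small nucleolar RNAs. The lower genes were more numerous and included the secreted protein gene OLFML1, the connexin GJA5, the aminopeptidase ENPEP, the actin ACTG2 and 6 of 17 placental genes at the floor. Of the 12900 genes, 192 were at least 1.5-fold higher in cholate (1.49%) and 303 at least 1.5-fold lower (2.35%). Over probe sets, the counts were 218 of 13613 higher (1.6%) and 319 lower (2.34%). At 2-fold, 66 genes were higher and 64 lower. The median difference over the 12900 genes was -0.03 log2 with a standard deviation across genes of 0.27, and the plate arrays correlated across these genes at r = 0.987, where genes are not independent replicates. Over all 18417 measured genes, 47.9% lay above 0 and the median was -0.01. Among the called probe sets the balance of higher to lower moved with the scaling. Higher ones made up 40.6% of them in the deposited values (218 against 319) and 27.7% after each array was centred on its median (173 against 451).

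**Figure D1:**
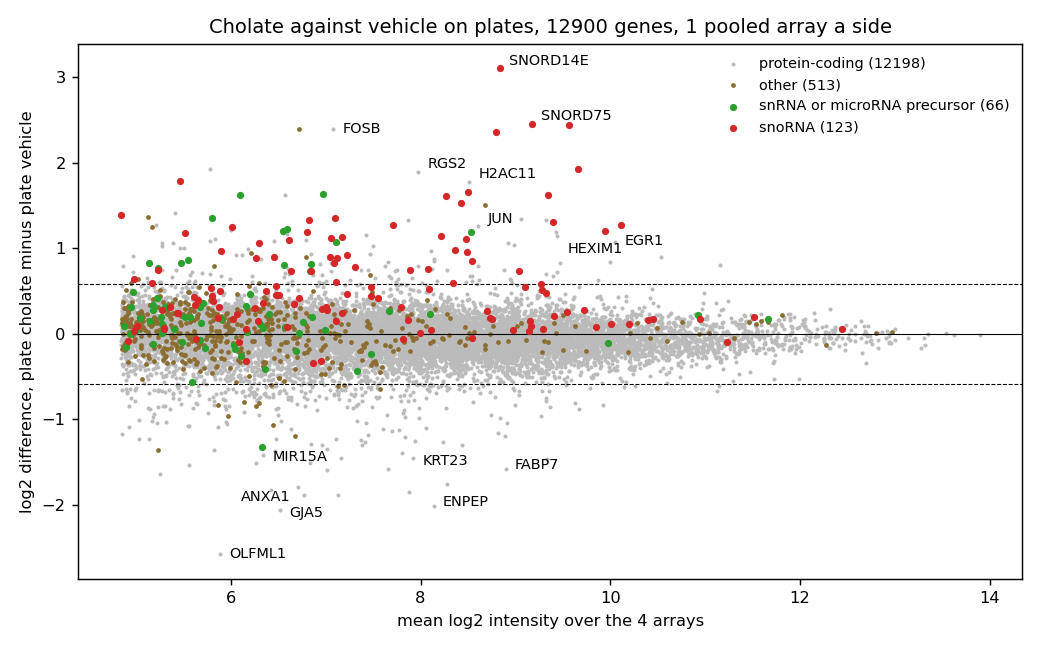
Log2 difference between plate cholate and plate vehicle (vertical axis) against the mean log2 intensity over the 4 arrays (horizontal axis) for 12900 genes, coloured by gene class. Dashed lines mark 1.5-fold. The red points, 123 small nucleolar RNAs, lie mostly above 0, and the lowest points, from OLFML1 at -2.58, are protein-coding genes.

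Lists were chosen with earlier results of these data known, so their ranking and counts are a description and no test. The median of the immediate early transcription factors stood further from 0 than that of any other list of genes examined. Of 31 measured, 28 were higher in cholate and 3 lower, with a median difference of 0.56 log2, and 15 of the 30 at or above the floor were called higher and none lower, beside 1.49% and 2.35% of all genes. The genes of AP-1, a dimer of FOS and JUN family proteins that binds DNA within minutes of a stimulus, were among them. FOSB was 6.14 in plate vehicle and 8.54 in plate cholate, a difference of 2.39 log2 or 5.25-fold and the highest of all protein-coding genes at or above the floor. JUN was 8.27 and 9.52, a difference of 1.26 log2 (2.39-fold). FOS was 9.77 and 10.61, a difference of 0.84 (1.79-fold).

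The other AP-1 genes followed in the same direction with smaller differences. JUNB differed by 0.77 log2 and JUND by 0.59 (0.52 after median centring, which ends the call), and FOSL1 and FOSL2 by 0.08 and 0.15, short of the threshold of 0.58 log2. ATF3, a stress-induced partner of JUN proteins, was 6.78 in plate vehicle and 7.88 in plate cholate, a difference of 1.09. CEBPB, a leucine zipper factor of acute phase and stress responses, was 7.40 and 8.23. MAFF, a small MAF protein, differed by 0.69.

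Zinc finger and nuclear receptor genes of the list were also higher. EGR1, a zinc finger factor downstream of growth factor signalling, was 10.34 in plate vehicle and 11.41 in plate cholate, a difference of 1.08 log2 (2.11-fold). The orphan nuclear receptor NR4A2 was 4.64 and 5.92, a difference of 1.27, with its vehicle value under the floor. NR4A1 was 8.06 and 8.86, and NR4A3 was 4.74 and 5.30, a difference of 0.56 just short of the threshold. NR4A3 reached the floor only through its plate cholate value, and was 4.55 and 4.84 on Transwell. The transcriptional repressor BHLHE40 was 8.34 and 9.40, a difference of 1.07. Among inhibitors of basic helix-loop-helix factors, ID3 was 5.33 and 6.33 and ID1 8.03 and 8.91, while ID2 differed by 0.34. The 3 members below 0 were MYC, at 9.52 and 8.99 with a difference of -0.52, KLF10 at -0.15 and EGR4 at -0.05, none of them past the threshold.

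The sequence just before the start of the leading gene, FOSB, and of EGR1, the gene in the set with matches to the serum response element, are shown because these 2 transcripts stand for the immediate early group. Each run is the 250 bases before the first RefSeq start in assembly GRCh38.p14, at chr19:45467746-45467995 on the plus strand for FOSB and chr5:138465229-138465478 on the plus strand for EGR1.
FOSB: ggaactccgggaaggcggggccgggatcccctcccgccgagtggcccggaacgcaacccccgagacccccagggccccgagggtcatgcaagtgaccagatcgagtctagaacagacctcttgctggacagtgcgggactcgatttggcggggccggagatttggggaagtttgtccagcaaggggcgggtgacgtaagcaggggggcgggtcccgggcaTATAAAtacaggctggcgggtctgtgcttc
EGR1: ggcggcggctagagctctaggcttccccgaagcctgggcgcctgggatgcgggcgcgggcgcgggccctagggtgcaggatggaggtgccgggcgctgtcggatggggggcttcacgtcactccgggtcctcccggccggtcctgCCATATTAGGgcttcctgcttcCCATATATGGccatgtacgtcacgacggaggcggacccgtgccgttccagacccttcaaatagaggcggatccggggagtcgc
The capitals mark TATAAA, which begins 30 bases before the FOSB start, and in EGR1 a pair of matches to the CArG box, the core of the serum response element, which begin 105 and 83 bases before the start. EGR1 was the only gene with a CArG box match in this window among 102 protein-coding higher genes with a listed sequence (0.98%), beside 1.10% of 10038 genes with one. A match is a description of letters and shows no binding.

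Genes of the second immediate early list, which encode feedback inhibitors and other short-lived proteins, divided. Of 38 measured, 25 were higher and 13 lower with a median of 0.20 log2. Of 36 at the floor, 7 were called higher and 2 lower, beside 1.49% and 2.35% of all genes. RGS2, which shortens signalling by Gq-coupled receptors, was 7.51 in plate vehicle and 9.41 in plate cholate, a difference of 1.89 log2 (3.71-fold). Its relative RGS16 was 5.44 and 6.54, a difference of 1.11. PPP1R15A, which directs a phosphatase to eIF2 alpha, was 8.61 and 9.40. The NF-kappaB inhibitor NFKBIA was 9.37 and 10.04, the cytokine signalling inhibitor SOCS3 5.55 and 6.26, the stress gene IER3 7.49 and 8.23, and the RNA decay factor ZFP36 6.97 and 7.58, a call lost under all 3 other scalings.

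The 2 called lower were phosphatases of MAP kinases. DUSP6, which acts on ERK, was 9.29 in plate vehicle and 8.61 in plate cholate, a difference of -0.68 log2, and DUSP14 was 7.57 and 6.85, a difference of -0.71. DUSP1, the family member most tied to stress kinases, was higher by 0.44, short of the threshold. ERRFI1, an inhibitor of the EGF receptor, stood at -0.52 and the ERK pathway inhibitor SPRY1 at -0.25, neither past it. Of 12 EGF receptor ligands and receptors, 7 were above 0, and HBEGF, a ligand shed from the membrane, was the 1 member called, at 8.21 and 8.97. PLK2, a kinase induced by serum and by p53, was 7.64 and 8.96, a difference of 1.33. VAMP1, a vesicle fusion protein outside every list, was 5.95 and 7.57, a difference of 1.62.

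**Figure D2:**
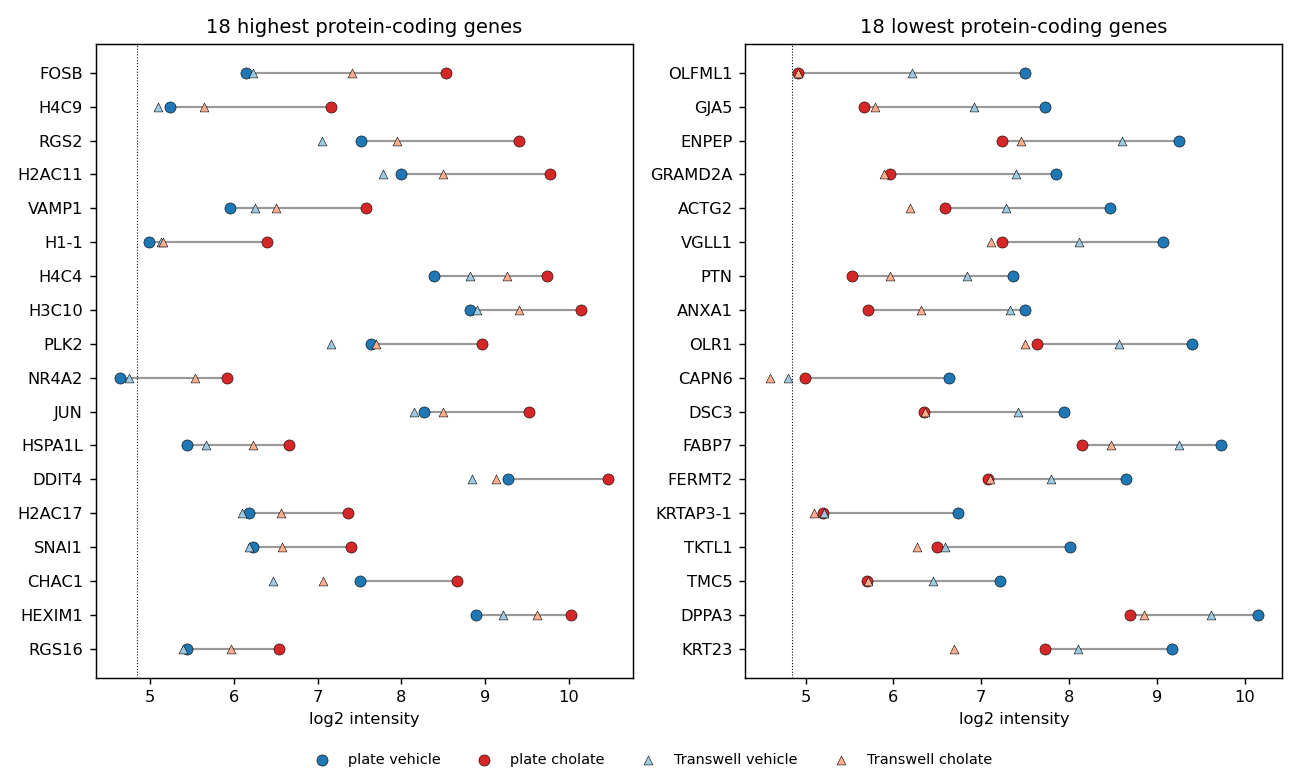
Log2 intensity (horizontal axis) on each of the 4 arrays for the 18 protein-coding genes with the highest (left) and lowest (right) difference between plate cholate and plate vehicle. Circles are the plate arrays, triangles the Transwell arrays, grey lines join the plate values and the dotted line is the floor of 4.84. FOSB runs from 6.14 to 8.54 on plates, and OLFML1 from 7.50 down to 4.92.

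Some genes of the integrated stress response and of the heat shock response were called higher, while the endoplasmic reticulum chaperones and the NRF2 antioxidant genes held no higher call. In the integrated stress response, phosphorylated eIF2 alpha raises translation of ATF4. Of its 32 genes, 14 were above 0 and 18 below, with a median of -0.04 log2. Of 31 at the floor, 5 were called higher and 1 lower, beside 1.49% and 2.35% of all genes. The higher ones were DDIT4, an inhibitor of mTORC1, at 9.28 in plate vehicle and 10.47 in plate cholate, CHAC1, which breaks down glutathione, at 7.50 and 8.66, TRIB3 at 8.09 and 8.94, GDF15 at 9.44 and 10.14, and DDIT3, also called CHOP, at 9.29 and 9.92. The amino acid transporter gene SLC7A5, also in the list, was lower at 9.73 and 9.14, a difference of -0.59. Among its enzymes of amino acid synthesis, PSAT1 stood at -0.46, ASNS at -0.19, PHGDH at 0.09, ALDH18A1 at 0.12 and CTH at 0.27, and the tRNA ligases WARS1, GARS1 and CARS1 stood at -0.29, -0.23 and -0.21, none of them called. ATF4 itself was read by 2 probe sets, which differed by 0.13 and 1.03.

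Chaperone genes as lists lay near the median of all genes. Of 22 heat shock genes, 8 were above 0 with a median of -0.08 log2. Of 20 at the floor, 4 were called higher and 1 lower, beside 1.49% and 2.35% of all genes. HSPA1L was 5.44 in plate vehicle and 6.65 in plate cholate, the HSP40 co-chaperone DNAJB1 10.27 and 11.16, the inducible HSPA6 4.88 and 5.60 and DNAJB4 7.04 and 7.67. HSPA6 reached the floor only through its plate cholate value, and was 4.52 and 4.87 on Transwell. HSPA1L lies beside near-identical HSP70 copies, which the probe sets may not separate. The small heat shock protein gene HSPB8 was lower, at 8.53 and 7.81. Of 24 chaperones and targets of XBP1 and ATF6, which respond to unfolded proteins in the endoplasmic reticulum, none was called, 17 were below 0 with a median of -0.05, and the values ran from ERO1B at -0.49 to DNAJB9 at 0.23.

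Antioxidant genes driven by NRF2 lay on the low side. Of 24 measured, 20 were below 0 and 4 above, with a median of -0.15 log2, beside 47.9% of all measured genes above 0. Haem oxygenase (HMOX1) was 8.50 in plate vehicle and 7.81 in plate cholate, a difference of -0.69 and the 1 member called. GCLM and GCLC, the subunits of the enzyme that limits glutathione synthesis, stood at -0.52 and -0.44, and TXNRD1 at -0.42, all short of the threshold. Targets of hypoxia-inducible factor lay on the high side, 25 of 31 above 0 with a median of 0.11. Of 31 at the floor, 3 were called higher and 1 lower, beside 1.49% and 2.35% of all genes. ANKRD37 was 6.75 and 7.77, MXI1 7.48 and 8.12, and BHLHE40, also an immediate early gene, is given above. HK1 was 7.57 and 6.91, and the other glycolytic members, none of them called, ran from ENO1 at -0.13, PGK1 at -0.10 and GAPDH at -0.02 through LDHA at 0.03 to HK2 at 0.39, ENO2 at 0.50 and PFKFB3 at 0.57. On Transwell inserts the list of hypoxia-inducible factor targets had 13 above 0 and 18 below, with a median of -0.02. Its 3 genes called higher on plates stood there at -0.05 for ANKRD37, -0.01 for MXI1 and 0.11 for BHLHE40.

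Of 24 p53 targets, 15 were above 0 with a median of 0.09 log2. Of 23 at the floor, 3 were called higher and 1 lower, beside 1.49% and 2.35% of all genes. The higher ones were PLK2, GDF15 and PMAIP1. PMAIP1, a BH3-only protein also called NOXA, was 6.23 in plate vehicle and 7.16 in plate cholate. It was the 1 member called of 19 BCL2 family and apoptosis genes at the floor, and of 21 measured 14 were below 0. The classic p53 target CDKN1A differed by 0.36 and was not called, and TIGAR, at -0.59, was the 1 p53 target called lower. HEXIM1, which holds the elongation kinase P-TEFb inactive, was 8.89 and 10.03, a difference of 1.14 (2.20-fold), and was singled out after its value was seen. The P-TEFb subunit genes CDK9 and CCNT1 differed by 0.09 and -0.02.

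The clearest difference by class of RNA was in the small nucleolar RNAs (snoRNAs), which guide chemical modification of ribosomal and spliceosomal RNA and in humans are mostly cut from the introns of host transcripts. Of 123 at the floor, 114 were higher in cholate and 9 lower, the median difference was 0.44 log2, and 47 were called higher and none lower (38.2%), beside 0.98% of 12198 protein-coding genes called higher and 2.38% called lower. C/D box snoRNAs, which guide 2'-O-methylation, and H/ACA box snoRNAs, which guide pseudouridylation, were alike in their medians, 0.43 over 68 genes with 29 called and 0.45 over 54 genes with 18 called. Together with the small nuclear RNAs and microRNA precursors, snoRNAs made up 61 of the 192 higher genes (31.8%).

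The highest value of the whole comparison was a snoRNA. SNORD14E was 7.71 in plate vehicle and 10.82 in plate cholate, a difference of 3.10 log2 or 8.60-fold. SNORD14C, from the same host gene and similar in sequence, was 8.81 and 10.73, so the probe sets may share signal. HSPA8, the host of both and a constitutive HSP70 chaperone, was 13.25 and 13.19.

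All 7 snoRNAs at the floor that lie within GAS5, a noncoding host transcript, were called higher, with differences from 0.83 to 2.46 log2. SNORD75 was 8.09 in plate vehicle and 10.55 in plate cholate, SNORD74 8.45 and 10.89, SNORD78 8.54 and 10.16, SNORD81 7.65 and 9.17 and SNORD77 4.88 and 6.67. The remaining GAS5 members were SNORD44 at 8.67 and 9.98 and SNORD79 at 6.76 and 7.58. In SNHG5, another noncoding host, SNORD50B was 7.88 and 10.25 and SNORD50A 9.47 and 10.68. No probe set at the floor carried GAS5 or SNHG5 as its single symbol.

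Other hosts held snoRNAs that were not called. Of 3 in RABGGTB, SNORD45A, SNORD45B and SNORD45C, 2 were above 0 and the lowest stood at -0.34. The 8 SNORD116 copies within SNHG14, whose near-identical sequences the array may not separate, were all above 0 with 1 called, from 0.03 to 0.64.

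Host transcripts did not show the difference of their snoRNAs. For 65 of the 123 snoRNAs the surrounding gene was itself measured at the floor (47 hosts). A host here is the shortest protein-coding or long noncoding gene that encloses the snoRNA. Strand was not used, so some may not be the true host. The snoRNAs had a median of 0.46 log2 and their hosts -0.04, and 59 of 65 stood above their host. The 27 called snoRNAs among them lie in 20 hosts, of which none was called higher, with host differences from -0.40 to 0.27. SNORD82 and SNORA75 differed by 1.39 and 0.90 while NCL, their host and the gene of nucleolin, stood at -0.27. SNORD82 reached the floor only through its plate cholate value, with 4.48 in plate vehicle and 4.25 and 4.79 on Transwell. SNORA20 and SNORA29 differed by 1.27 and 1.33 and their host TCP1, a chaperonin subunit, by -0.05. SNORA46 and SNORA50A differed by 1.13 and 1.10 and their host CNOT1, the scaffold of the main deadenylase complex, by -0.01.

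Of 14 small nuclear RNAs at the floor, 13 were above 0 with a median of 0.81 log2. Of these 14, 8 were called higher and none lower, beside 1.49% and 2.35% of all genes. RNU6ATAC and RNU4ATAC, RNAs of the minor spliceosome, were 5.29 and 6.65, and 6.19 and 7.39, in plate vehicle and plate cholate. A further probe set of RNU6ATAC differed by 0.42 log2, under the threshold. Of the same spliceosome, RNU11 was 6.10 and 6.90, and RNU12 differed by 0.32 and was not called. The others called were variants of U1, which recognises the start of introns. RNVU1-15 was 6.27 and 7.90 and RNVU1-1 was 7.89 and 9.09, but such copies are near-identical and may share signal.

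MicroRNA precursors were higher less widely. Of 52 at the floor, 38 were above 0 with a median of 0.13 log2. Of these 52, 6 were called higher and 1 lower, beside 1.49% and 2.35% of all genes. The precursor MIR425 was 5.54 in plate vehicle and 7.17 in plate cholate, a difference of 1.63, and MIR191, from the same region of chromosome 3, was 6.20 and 7.43. MIR23A and MIR27A, which share a primary transcript on chromosome 19, were 5.07 and 5.84, and 5.30 and 6.13. MIR194-1, an intestinal microRNA, was 4.96 and 5.83, and MIR320A was 6.59 and 7.32. MIR15A was the 1 called lower, at 6.75 and 5.44, and DLEU2, the noncoding transcript around it, was 7.50 and 6.90.

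Mature sequences of 1 arm of each precursor named above (RefSeq, assembly GRCh38.p14) are shown, except for MIR320A, which was left out. The seed decides which RNAs a microRNA pairs with. Capitals mark the seed, bases 2 to 8, and the arrays read precursor or primary RNA and not these mature strands.
hsa-miR-425-3p: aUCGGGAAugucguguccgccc
hsa-miR-191-5p: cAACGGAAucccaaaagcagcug
hsa-miR-23a-3p: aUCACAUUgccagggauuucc
hsa-miR-27a-3p: uUCACAGUggcuaaguuccgc
hsa-miR-194-5p: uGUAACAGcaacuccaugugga
hsa-miR-15a-5p: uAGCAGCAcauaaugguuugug
They lie on the minus strand at chr3:49020159-49020180, chr3:49020672-49020694, chr19:13836595-13836615, chr19:13836447-13836467, chr1:220118206-220118227 and chr13:50049167-50049188. No seed was shared, and the 10 mature arms listed for the precursors shown held 10 different seeds, with MIR320A not counted.

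Histone genes of the replication-dependent clusters, which are short, lack introns and make RNAs without a poly(A) tail, supplied 11 of the 192 higher genes. Of 60 histone genes at the floor, 11 were called higher and 4 lower, with a median of 0.11 log2 and a range from -0.67 to 1.92, beside 1.49% of all genes called higher and 2.35% lower. H4C9 was 5.24 in plate vehicle and 7.16 in plate cholate, H2AC11 8.00 and 9.78, H1-1 4.99 and 6.40, H4C4 8.40 and 9.74 and H3C10 8.82 and 10.15. The 4 called lower were H2BC7, at 9.42 and 8.76, H2BC14 at 10.28 and 9.67, H2AC21 at 11.13 and 10.53 and H2BC13 at 6.96 and 6.36, and those of H2BC14 and H2AC21 were lost under cyclic loess. Many histone copies are near-identical, so the value of a single gene is uncertain.

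The higher protein-coding genes were short. Their median length in RefSeq was 5.72 kb (120 genes), beside 34.2 kb for the 290 lower genes and 27.6 kb for all 12198. Without the histone genes it was 6.84 kb (109 genes). In 5 groups of nearly equal number by length, the share called higher was 2.87% in the shortest, then 1.07%, 0.41%, 0.25% and 0.33%. The share called lower was between 2.01% and 2.95% in all 5. The setting without histone genes was added after the data were seen.

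**Figure D3:**
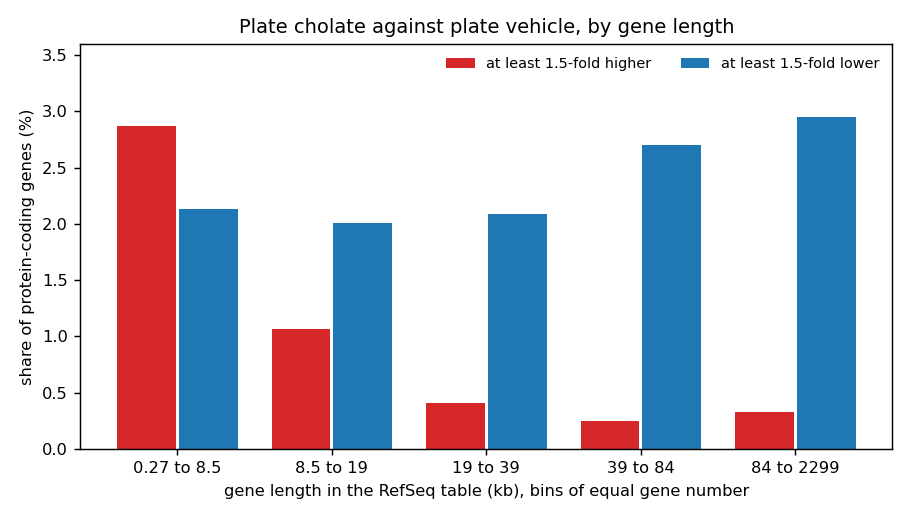
Share of protein-coding genes called higher (red) or lower (blue) in plate cholate, in percent (vertical axis), in 5 groups by gene length in kb (horizontal axis). The red bars drop from 2.87% in the shortest group to 0.33% in the longest, while the blue bars stay between 2.01% and 2.95%.

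A TATA box match was more frequent before the higher genes than before all genes. In the 250 bases before the first RefSeq start, read on both strands, TATAAA was present in 29.4% of 102 higher genes with a listed sequence, in 23.1% of 91 without histone genes and in 6.22% of 10038 protein-coding genes at the floor. CCAAT was present in 49.0%, 45.1% and 34.7%. TGACG, the half-site core of CREB and ATF factors, was present in 41.2%, 37.4% and 29.3%, a count that includes its overlap with TGACGTCA. TGACTCA, the AP-1 site, was present in 3.92% of higher genes and 2.6% of all, and GGGCGG, the core of SP1 sites, in 67.6% and 66.8%. Sequences were listed for 102 of 120 higher genes (85%) but for only 77.6% of the 290 lower genes, under the 80% set for such a check, so the check is void for the lower genes.

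The windows of HEXIM1 and H2AC11 are shown as examples of a non-histone and a histone gene with TATAAA in the usual place. They lie at chr17:45148225-45148474 and chr6:27132793-27133042, both on the plus strand of GRCh38.p14.
HEXIM1: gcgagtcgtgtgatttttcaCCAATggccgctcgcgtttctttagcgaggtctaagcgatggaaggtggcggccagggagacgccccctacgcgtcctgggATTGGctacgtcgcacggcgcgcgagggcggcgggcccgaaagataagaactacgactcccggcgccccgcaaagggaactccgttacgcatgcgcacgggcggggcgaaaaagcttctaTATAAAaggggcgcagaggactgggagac
H2AC11: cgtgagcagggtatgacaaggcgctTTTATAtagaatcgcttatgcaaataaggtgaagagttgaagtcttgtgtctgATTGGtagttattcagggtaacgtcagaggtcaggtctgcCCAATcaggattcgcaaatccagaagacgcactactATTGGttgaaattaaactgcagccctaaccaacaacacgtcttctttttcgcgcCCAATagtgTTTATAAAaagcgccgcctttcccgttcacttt
Capitals mark TATAAA and CCAAT on either strand. TATAAA begins 29 bases before the HEXIM1 start and 31 bases before that of H2AC11, and H2AC11 holds CCAAT at 4 places counting both strands.

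The genes lowest in cholate were of many kinds. OLFML1, a secreted olfactomedin-like protein, was 7.50 in plate vehicle and 4.92 in plate cholate, a difference of -2.58 log2 and the lowest of all 12900 genes, with its cholate value near the floor. ENPEP, a brush border aminopeptidase that cleaves angiotensin II, was 9.26 and 7.24, a difference of -2.02 (4.05-fold). GRAMD2A, a protein of contacts between the endoplasmic reticulum and the plasma membrane, was 7.85 and 5.96. PTN, a secreted growth factor, was 7.36 and 5.53 and the oxidised lipoprotein receptor OLR1 9.40 and 7.64. FABP7, a fatty acid binding protein of the brain, was 9.73 and 8.15, and DPPA3, a gene of germ cells and early embryos, 10.15 and 8.69.

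Cell contact genes were lower singly and not as families. Of 14 connexins and pannexins, 7 were above 0 and 7 below with a median of 0.00 log2, yet GJA5 was 7.72 in plate vehicle and 5.67 in plate cholate and GJA1 7.95 and 6.51. Of the 10 at the floor, these 2 were called lower and none higher, beside 2.35% and 1.49% of all genes. Of 20 genes of adherens junctions and desmosomes, 15 were below 0 with a median of -0.06, and the desmosomal cadherin DSC3 was the 1 member called, at 7.95 and 6.35. Other cadherins were CDH1, CDH17 and CDH3, at 0.01, 0.08 and -0.24, and CDH6, outside the lists, which was lower at 7.77 and 6.41. Of 24 tight junction genes none was called, with values from -0.27 for TJP1 to 0.31 for MAGI3 and a median of -0.02.

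Genes of actin and of its transcription factor SRF were mostly lower. Of 21, 16 were below 0 with a median of -0.16 log2. Of 18 at the floor, 3 were called lower and none higher, beside 2.35% and 1.49% of all genes. ACTG2, a smooth muscle actin, was 8.47 in plate vehicle and 6.59 in plate cholate, TAGLN 7.45 and 6.69 and FHL2 8.43 and 7.84. SRF itself differed by 0.16. Of 26 targets and partners of YAP and TEAD factors, 14 were below 0, beside 47.9% of all measured genes above 0. Of 25 at the floor, 3 were called lower and none higher. They were the TEAD cofactor VGLL1 at 9.07 and 7.23, ANKRD1 at 10.56 and 9.75 and TEAD1 at 8.72 and 8.07. FERMT2, an integrin activator, was 8.65 and 7.07. Among collagens, laminins and integrins, the matrix protein SPARC was 8.18 and 6.88 and the laminin chain LAMA1 8.61 and 7.86, and the other 31 were not called.

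Placental genes, several of which this line expresses, held 6 of the lower calls. Of 22 measured, 15 were below 0 with a median of -0.22 log2, and of 17 at the floor 6 were called lower and 1 higher, beside 2.35% and 1.49% of all genes. Aromatase (CYP19A1) was 8.53 in plate vehicle and 7.40 in plate cholate, XAGE3 8.83 and 7.58, XAGE2 6.75 and 5.40, CAPN6 6.63 and 4.99 and GATA3 8.89 and 8.29. CAPN6 reached the floor only through its plate vehicle value, and was 4.80 and 4.59 on Transwell. The sixth was VGLL1, which the YAP and TEAD list also holds. ERVW-1, the retroviral envelope gene of syncytin, was the 1 called higher, at 7.97 and 8.56.

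Interferon-induced genes were lower in 20 of 29 cases with a median of -0.16 log2, beside 47.9% of all measured genes above 0. Of 22 at the floor, 4 were called lower and none higher, beside 2.35% and 1.49% of all genes. IFITM3, which blocks entry of viruses, was 7.97 in plate vehicle and 6.62 in plate cholate and IFITM2 8.62 and 7.49, a near-identical pair that probe sets may not separate. IFIT1 was 8.74 and 8.00 and IFIT2 6.75 and 6.10. TLR7, a receptor for RNA in endosomes, was 6.10 and 5.07. Of 35 genes of NF-kappaB signalling, chemokines and cytokines, 19 were above 0, NFKBIA and NFKBIZ were called higher and the chemokine CCL20 lower, at 7.49 and 6.83.

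Other lower genes were scattered over secreted proteins, transporters and epithelial markers. The iron carrier transferrin (TF) was 7.31 in plate vehicle and 5.89 in plate cholate, and haptoglobin (HP), which binds free haemoglobin, 5.97 and 4.74. HP reached the floor only through its plate vehicle value, and was 4.66 and 4.78 on Transwell. Of 27 secreted proteins of liver and fetal gut, 14 were above 0. Of 25 at the floor, 3 were called lower, TF and HP among them, and none higher, beside 2.35% and 1.49% of all genes. Keratin 23 (KRT23) was 9.18 and 7.73, while KRT8, KRT18 and KRT19, the main keratins of the gut, differed by -0.17, -0.35 and -0.05. The membrane mucin MUC15 was 9.09 and 7.88, the zinc transporter SLC39A8 7.54 and 6.25, the amino acid transporter SLC7A8 9.51 and 8.46 and the fatty acid desaturase FADS2 8.85 and 7.98. ANXA1, an anti-inflammatory annexin, was 7.49 and 5.71, the natriuretic peptide NPPB 6.67 and 5.62, and BMP4, a growth factor of the BMP family, 7.79 and 6.97.

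Genes of growth showed small shifts shared by most of their list. Of 27 genes of ribosome biogenesis and the nucleolus, 25 were below 0 with a median of -0.28 log2, beside 47.9% of all measured genes above 0, and NOP14 was the 1 member called, at 8.33 in plate vehicle and 7.71 in plate cholate. HEATR1 stood at -0.52, the pseudouridine synthase DKC1 at -0.50 and NOLC1 at -0.49, and the 2 above 0 were UBTF at 0.04 and BOP1 at 0.03. DKC1 and fibrillarin (FBL, -0.04) are the enzymes of the H/ACA and C/D snoRNA particles. Of 25 proteasome subunits, 24 were below 0 with a median of -0.19, from PSMB6 at -0.36 to PSMB5 at 0.12, and none was called.

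Of 41 cell cycle and DNA replication genes, 35 were below 0 with a median of -0.23 log2. Cyclin D2 (CCND2) was 8.35 in plate vehicle and 7.74 in plate cholate and was the 1 member called, while CCNE1 stood at -0.57, CCNB2 at -0.56 and CDC20 at -0.43. Of 20 stem cell genes and WNT targets, 17 were below 0 with a median of -0.13. Of 18 at the floor, 2 were called lower and none higher, beside 2.35% and 1.49% of all genes. The WNT inhibitor DKK1, at 11.80 and 11.13, and TNFRSF19, at 8.50 and 7.88, were called lower, and AXIN2, MYC and LGR5 stood at -0.55, -0.52 and -0.51. The directions of the ribosome biogenesis, proteasome, cell cycle and stem cell lists were the same under all 3 other scalings. Ribosomal proteins differed from biogenesis genes, with 16 of 26 above 0 and none called, and their median of 0.04 changed sign when each array was centred. Respiratory chain subunits had 19 of 28 below 0, a median of -0.06 and none called.

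When genes were grouped by the letters of their symbols, a grouping made after the values were seen, the lowest medians of 144 families of at least 10 genes were those of UTP genes, which build the small ribosomal subunit, at -0.34 log2 with 9 of 10 below 0, and of NUP genes, the nucleoporins, at -0.29 with 18 of 20 below 0. The 12 PSMD genes of the proteasome cap were all below 0 with a median of -0.18. The highest medians were those of SNORA and SNORD genes.

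Several lists of the differentiated enterocyte had most members above 0, beside 47.9% of all measured genes, with few calls. Of 17 brush border enzymes, 13 were above 0 with a median of 0.16 log2, and ENPEP was the 1 member called, lower. Aminopeptidase N (ANPEP) differed by 0.51, lactase (LCT) by 0.35, sucrase-isomaltase (SI) by 0.33 and alkaline phosphatase (ALPI) by 0.22, all short of the threshold. Of 18 genes of microvillus structure, 14 were above 0 with a median of 0.14, led by CDHR5 at 0.39. Of 18 intestinal and hepatic transcription factors, 15 were above 0 with a median of 0.16, led by ELF3 at 0.57, and of 20 chylomicron and apolipoprotein genes, 15 were above 0 with a median of 0.15. None of the last 3 lists had a call, and the medians of these 4 lists stayed above 0 under the 3 other scalings. The marker list of Caco-2 cells and enterocytes had 9 of 16 above 0 and a median of 0.05, and KRT20 in it stood at -0.36. The list of sugar, amino acid and peptide transporters had 13 of 23 above 0 and a median of 0.03. Both medians turned negative when each array was centred, to -0.02 and -0.04.

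Genes of bile acid handling differed little at 3 h. Of 29 measured, 19 were above 0 and 10 below with a median of 0.04 log2, which turned to -0.03 when each array was centred. Of 20 at the floor, 1 was called higher and 1 lower, beside 1.49% and 2.35% of all genes. SLC51A, the alpha chain of the basolateral exporter of bile acids and an FXR target, was 6.69 in plate vehicle and 7.28 in plate cholate, a difference of 0.59 just past the threshold and short of it under 2 of the 3 other scalings. Its partner SLC51B differed by 0.08. The ileal bile acid binding protein FABP6, a further FXR target, was 6.04 and 6.27, the repressor SHP (NR0B2) stood at -0.04, the uptake transporter SLC10A2 at 0.03 and the exporter ABCC3 at 0.30. FGF19, the FXR-induced hormone, was under the floor with a difference of 0.05. UGT2B4, which conjugates bile acids, was the 1 called lower, at 6.84 and 6.15.

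Cholesterol synthesis and uptake genes were more often higher, 17 of 24 with a median of 0.12 log2. INSIG1, a sterol sensor that holds SREBP in the endoplasmic reticulum, was 11.14 in plate vehicle and 11.95 in plate cholate and was the 1 member called. MSMO1, SQLE, NSDHL and HMGCS1 differed by 0.48, 0.36, 0.34 and 0.29, and SREBF1 and LSS by -0.08 and -0.21. Of 22 Notch pathway genes, 14 were above 0 with a median of 0.10. Of 20 at the floor, 2 were called higher and none lower, beside 1.49% and 2.35% of all genes. The Notch ligand DLL4 was 5.61 and 6.31 and the feedback gene NRARP 6.27 and 6.86, both called higher, and HES1 differed by 0.44. The NRARP call was lost under all 3 other scalings, at 0.52 to 0.56. Of 18 metallothioneins, which bind zinc, and zinc transporters, 10 were above 0 and 8 below. Their median of 0.02 changed sign under all 3 other scalings. MT1X was called higher, at 7.15 and 7.80, a call lost after median centring, and MT1E, at 5.63 and 5.39, was not called. Of 14 common reference genes, 11 were below 0 with none called, from PPIA at -0.24 to GUSB at 0.14.

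**Figure D4:**
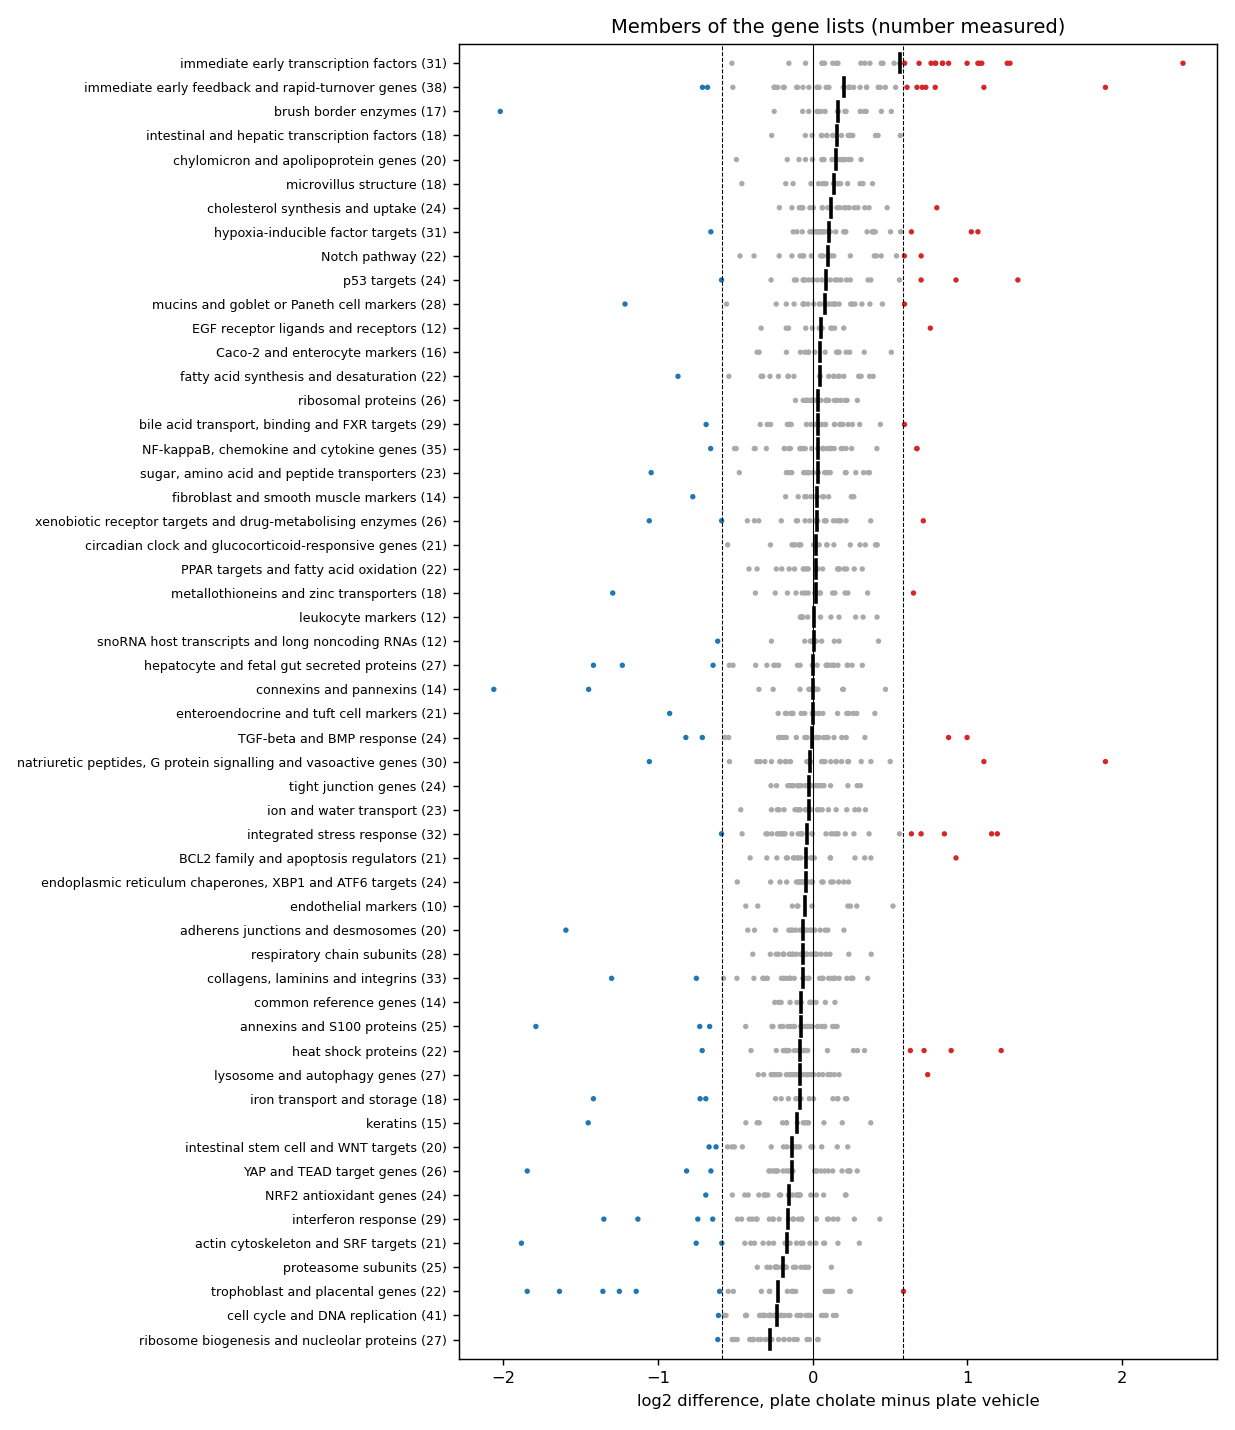
Log2 difference between plate cholate and plate vehicle (horizontal axis) of every measured member of the 54 gene lists (rows, with the number measured), ordered by the list's median, drawn as a black bar. Red and blue points lie past 1.5-fold (dashed lines), floor or not. The immediate early transcription factors stand highest at 0.56 and ribosome biogenesis lowest at -0.28.

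Only part of the response fell in the lists. Of the 192 higher genes, 45 belonged to any of the 54 lists, and of the 303 lower genes 52 did. The share of all genes at the floor that belonged to any list was not counted. These counts therefore do not show whether called genes were in the lists more or less often than other genes. Higher genes outside the lists, named after their values were seen, include the zinc finger repressor SNAI1 at 6.23 in plate vehicle and 7.40 in plate cholate, the phosphatase regulator PPP1R10 at 8.40 and 9.44, the chemokine receptor CXCR4 at 4.85 and 5.88 and the small GTPase RASD1 at 7.02 and 7.94. Of 255 long noncoding RNAs, 6 were called higher (2.35%) and 9 lower (3.53%), near the 1.49% and 2.35% of all genes, with LOC731157 highest at 5.64 and 8.04. Of 225 pseudogenes, 4 were called higher (1.78%) and 3 lower (1.33%), with HSD17B7P2 highest at 8.30 and 9.81.

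The higher and lower genes differed in where the plate arrays stood among all 4 arrays, a description of genes chosen by this same contrast. Of 192 higher genes, plate cholate was the highest of the 4 arrays for 177 (92.2%), while plate vehicle was the lowest for 110 (57.3%), beside 26.2% and 22.8% of all 12900 genes. Of 303 lower genes, plate vehicle was the highest for 245 (80.9%) and plate cholate the lowest for 152 (50.2%), beside 24.5% and 34.5% of all genes. The median level of the lower genes was 7.33 in plate vehicle, 6.45 in plate cholate, 6.97 in Transwell vehicle and 6.68 in Transwell cholate. For them Transwell vehicle was below plate vehicle by a median of -0.42 log2, and Transwell cholate differed from plate cholate by 0.01. For the higher genes those medians were 0.14 and -0.56.

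**Figure D5:**
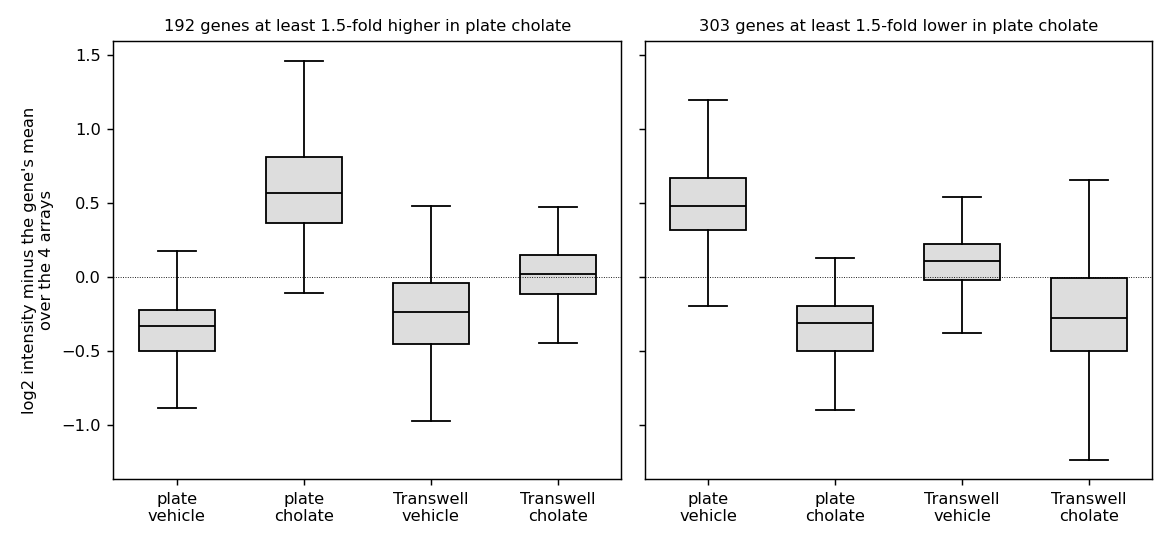
Log2 intensity minus the gene's own mean over the 4 arrays (vertical axis), for the 192 genes called higher (left) and the 303 called lower (right) in plate cholate. Boxes span the quartiles with the median as a line, whiskers reach at most 1.5 times the box and points beyond are not drawn. The higher genes stand out in plate cholate and the lower genes in plate vehicle.

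On Transwell inserts the same genes mostly differed in the same direction. Of the 192 higher genes, 165 were above 0 on Transwell (85.9%), where 5986 of 12900 genes were, and 23 were at least 1.5-fold higher there too. Of the 303 lower genes, 261 were below 0 (86.1%), where 6901 of 12900 were, and 65 were at least 1.5-fold lower. The median difference on plates and on Transwell was 0.83 and 0.26 log2 for the higher genes and -0.74 and -0.27 for the lower genes. The genes were chosen for a large difference on plates, which makes the plate medians large by construction, so the sizes are not compared. Genes near 0 on Transwell include H1-1 at 0.02, CXCR4 at 0.05 and BHLHE40 at 0.11 among the higher and TF at 0.01 among the lower. The snoRNAs had a Transwell median of 0.14. The difference between the supports has no replicate and was not tested.

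Several probe sets of 1 gene gave a check within the arrays. Of 464 genes with more than 1 distinct probe set at the floor, all had the same sign in 331. Of the 34 with a called probe set, 28 had the same sign in all and 9 were called in all. The threshold left near neighbours on either side, with NEIL1 and ERVW-1 at 0.59 log2 just inside and TUBA4A and SNORD104 at 0.58 just outside. On the lower side FHL2 and ZBTB8OS stood at -0.59 inside and HMGB3 and FEZ2 at -0.58 outside. At the floor, TFAP2A and CYP2E1, with means of 4.85, were inside, and CD164L2 and CTSF, with means of 4.84, were outside.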

How the data were processed

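The authors deposited log2 intensities, 1 per probe set and array of an Affymetrix gene array, and per the submitters' processing notes the tool was RMA. This method corrects background, equalises the arrays and summarises probes, which would hide a shift common to most transcripts and compresses differences near background. Its version, and any genome build, were not given in the sources used here. Gene symbols came from the platform annotation, checked against a RefSeq table of GRCh38.p14: of 33297 probe sets, 19460 had 1 symbol (19429 found in RefSeq), 1754 several and 12083 none, and the last 2 kinds were counted but not named.

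The difference is plate cholate minus plate vehicle on the log2 scale. A gene is represented by whichever of its probe sets had the highest 4-array mean. Called means at least 1.5-fold apart with that mean at or above the floor. List counts above and below 0 and medians cover all measured members. With 1 array a side no test was made. Members and lists were chosen with earlier results of these data known. Named genes are the 25 highest and 25 lowest, up to 6 members of each list with the largest differences, the 3 highest of each gene class and the genes beside the floor. Other names were chosen after their values were seen. Alternatives were median centring, quantile and cyclic loess normalization (limma 3.58.1, R 4.3.3), other floors, a 2-fold threshold and the mean over probe sets. Python 3.11.15 did the rest, and the counting was tested on simulated data.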

Additional observations from a re-analysis of the deposited data

Results flagged for a closer look

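ERVW-1 and MTLN were past 1.5-fold on both supports but in opposite directions. ERVW-1 was 7.97 in plate vehicle and 8.56 in plate cholate, a difference of 0.59 log2, and 7.54 and 6.89 on Transwell, a difference of -0.65. MTLN, which encodes a mitochondrial micropeptide, was 5.16 and 5.76 on plates, a difference of 0.61, and 5.46 and 4.66 on Transwell, a difference of -0.81, with the Transwell cholate value under the floor. The plate call of ERVW-1 was lost after median centring, at 0.52, and that of MTLN under all 3 other scalings, at 0.53 to 0.55. The difference between supports was not tested in either case, since each condition has 1 array.

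Probe sets with no listed gene, which the comparison leaves out, held a larger share of higher values than named genes. Of 5198 at the floor, 785 were at least 1.5-fold higher in plate cholate (15.1%) and 125 lower, with a median of 0.09 log2, beside 1.6% and 2.34% of the 13613 probe sets with 1 symbol. Of 1167 with several symbols, 42 were higher and 18 lower. Controls and intronic probe sets were not told apart from unannotated transcripts, and their part in this share was not tested.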

How the results depend on the processing

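With the floor at the 60th percentile, 135 probe sets were at least 1.5-fold higher in plate cholate and 175 lower, and at a 2-fold threshold 74 were higher and 69 lower. Under the other alternatives both counts stayed within 1.5 times 218 and 319. The 54 list medians moved by less than 0.1 log2 under the 3 other scalings. Medians close to 0 changed sign for 16 lists under centring, 9 under quantile normalization and 6 under cyclic loess. Genes called higher and lower numbered 149 and 426, 168 and 369, and 173 and 330 in these settings, with 43, 45 and 46 snoRNAs called. Of 132 named genes past 1.5-fold, 7, 5 and 6 left the call, and 2 left it with the mean over probe sets, among them CFAP144P1 at 0.56. Over all called genes in the text, DDIT3, DNAJB4, ERVW-1, JUND, MT1X, MTLN, MXI1, NEIL1, NRARP, SLC51A, ZFP36, FHL2, GATA3, H2AC21, H2BC14, SLC7A5 and TIGAR left it under at least 1 other scaling. No paired analysis was possible because each condition has 1 array and the labels carry no replicate numbers. The standard deviation of the differences fell from 0.31 or less in dim genes to 0.21 in the brightest of 5 groups, so small differences in dim genes are least certain.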
